A study of Populus trichocarpa with 12 samples.

Results

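The severe drought comparison set xylem of Populus trichocarpa (black cottonwood) after 7 days without watering against xylem of fully irrigated plants, by RNA-seq. It was defined by the library titles and used 8 of the 12 libraries of the study, 4 of day 7 and 4 of day 0, and all 41335 genes of the count table. On day 7 the soil held 29% and the xylem 74.3% water, a state the labels call severe; on day 0, with full irrigation, the soil held 74% and the xylem 80.6%. The other 4 libraries came from day 5, mild drought, with 33% and 75.3%, and entered the fit so that the 3 days shared 1 estimate of the spread. All trees grew for about 3 months in the same greenhouse soil and light before harvest, per the labels, and the tissue was differentiating xylem scraped from debarked stems near the soil. The labels give no genotype for these trees and mention several batches without saying which of them supplied the trees. The water contents are 1 value per group. No label says whether the 4 libraries of a day came from different trees, so p-values measure only the spread between these libraries. Tree age and day of harvest may have changed together with the days without water, and their effects cannot be told apart here.

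Differentiating xylem is the layer of young wood inside the cambium, where cells expand, lay down a secondary wall of cellulose, xylan and lignin, and then die to become vessels and fibres. Lignin is built from monolignols, which the cell makes from phenylalanine along the phenylpropanoid pathway, and cellulose is spun at the plasma membrane by complexes of cellulose synthases. Water shortage lowers the turgor that growing cells need, and plants respond to it largely through the hormone abscisic acid, which switches on genes for protection of proteins and membranes and slows growth.

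The count table holds gene identifiers alone. No name is paired with any of them there or in the RefSeq table of genes, so the product-name lists for abscisic acid signalling, protective proteins, water channels, cell division and other tissues were not analysed here. The defining markers of phloem, bark and cambium could therefore not be examined. Single genes are given by identifier with no role, at most 2 in each direction. The exception is a list of 25 genes known from published designations as enzymes of wood synthesis, which is described by enzyme family without its identifiers. On day 0, 24 of these 25 genes were among the 1000 most abundant by counts, and the lowest of the 25 stood above 96.1% of the genes of the table. The listed genes were thus present at high levels. The list was chosen with earlier results of these libraries known, so this is no independent check of the tissue. On day 7, only 3 of the 25 were among the 1000 most abundant.

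The 8 libraries held 9.35 to 17.7 M counts. Across the 26943 genes tested, Spearman correlations lay between 0.903 and 0.982 among the day 7 libraries, between 0.940 and 0.984 among the day 0 libraries, and between 0.688 and 0.844 across the days. The day 7 libraries were the more uneven set. Replicates 1 and 4 correlated at 0.982 with each other but at 0.907 and 0.903 with replicate 2, which was nearest to replicate 3, at 0.947. The median gene had an SD of 0.344 in log2 CPM (counts per 1 M scaled counts) over the day 7 libraries, against 0.280 over the day 0 libraries. Day 7 replicate 2 also lay nearest to watered xylem, with correlations of 0.781 to 0.844 with the day 0 libraries, against 0.688 to 0.810 for the other day 7 libraries.

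Transcript levels of 51.1% of the tested genes differed between severe drought and full irrigation. Of the 26943 genes, 7402 (27.5%) were higher on day 7 and 6359 (23.6%) lower by edgeR's quasi-likelihood test at an adjusted p under 0.05, the threshold for calling a gene changed. With upper-quartile scaling the split was 6686 higher and 7041 lower, so which direction held more genes depended on the scaling. All 4 day 7 libraries lay above all 4 day 0 libraries for 6585 genes (24.4%) and below them for 5817 (21.6%). Tested against a minimum fold of 2, 3197 genes (11.9%) were higher and 2426 (9.0%) lower. In bulk tissue a lower level cannot be told apart from fewer cells of the type that holds the transcript.

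The upward changes reached further than the downward ones. Genes called higher had a median log2 fold change of 1.48 (quartiles 0.77 and 2.98), and genes called lower one of -1.33 (quartiles -2.58 and -0.75). Changes of at least 8-fold by point estimate were found for 1827 higher and 1270 lower genes, of at least 32-fold for 846 and 373, and of at least 128-fold for 359 and 87. From a mean under 1 CPM on day 0, 415 called genes reached at least 10 CPM on day 7, and 47 of them reached at least 100 CPM. In the opposite direction, 210 called genes averaged under 1 CPM on day 7 and at least 10 CPM on day 0. Overlap was allowed here, so a mean could rest on some libraries of its day, and genes with identical counts were each counted. No count was found in any day 0 library for 195 genes called higher, and in any day 7 library for 32 called lower. Fitted folds of genes with few or no counts in 1 group depend on the prior count and are not exact sizes.

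Direction varied with the level of the gene. Among the 2026 genes averaging over 100 CPM across all 12 libraries, 39.9% were higher on day 7 and 21.0% lower. Among the 14006 genes between 10 and 100 CPM the shares were 29.7% and 22.7%, among the 9478 between 1 and 10 CPM they were 23.0% and 25.6%, and among the 1433 below 1 CPM they were 18% and 22.5%. The share called higher thus went up with the level, while the share called lower stayed between 21.0% and 25.6%. The level was averaged over the day 7 and day 5 libraries as well as day 0. Genes higher in drought therefore enter the upper classes more readily, which favours this trend in advance. Counting error is also smaller for abundant genes. How much either contributes to these shares was not tested.

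**Figure D1:**
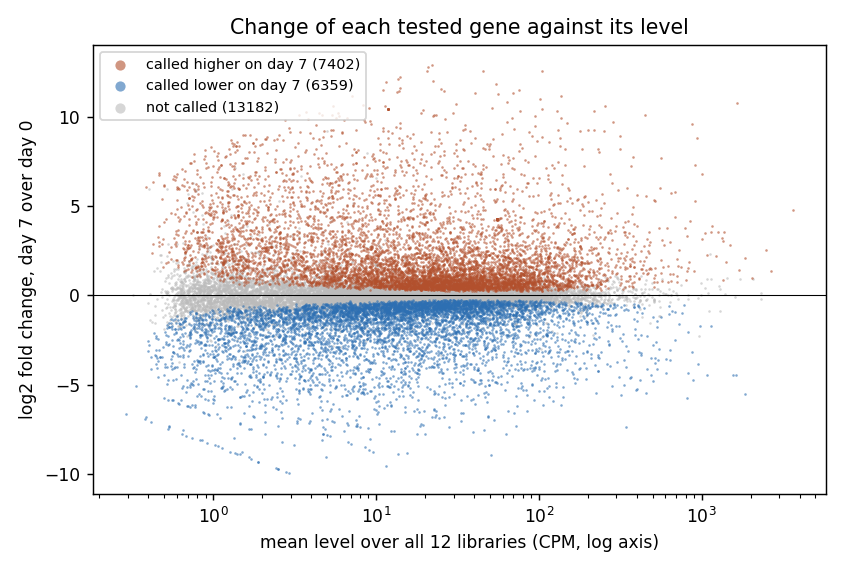
Log2 fold change of day 7 over day 0 (vertical axis) of each of the 26943 tested genes against its mean CPM over all 12 libraries (horizontal, log axis), with genes called higher, called lower and not called in separate colours. Upward changes extend to a log2 fold change of 12.9 and downward ones to -9.98.

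Each day 7 library was then set against calls made without it. Only genes of the tested set were counted, and that set and the scaling of CPM drew on all libraries, the left-out one included. These calls and the left-out library were compared with the same 4 day 0 libraries, so low or high day 0 values favour agreement in advance, and the shares are a description with no test. Of the 6716 genes called higher without replicate 1, 96.5% lay above all 4 day 0 libraries in replicate 1, against 39.5% of all tested genes. For replicates 3 and 4 the corresponding shares were 92.1% and 93.0%, and for replicate 2 they were 85.1%, against 36.6% of all tested genes. Replicate 2 had the lowest share. Of the genes called lower without the library concerned, 96.2% in replicate 1, 87.9% in replicate 2, 92.4% in replicate 3 and 92.2% in replicate 4 lay below all 4 day 0 libraries, against 35.9%, 36.8%, 35.9% and 36.1% of all tested genes in replicates 1 to 4. The shares over all tested genes are not what unchanged genes chosen by such calls would give.

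The size of the difference from day 0 was also smallest in replicate 2. In that library, the genes called higher without it stood 1.01 above the day 0 mean in median log2 CPM, against 1.44 for the mean of the other 3 libraries. For the genes called lower without it the medians were -1.17 in replicate 2 and -1.48 in the others. Replicates 1, 3 and 4 differed by at most 0.153 from the remaining libraries in either direction. Over the calls from all libraries, replicate 2 was the day 7 library nearest to day 0 for 43.7% of the higher and 39.3% of the lower genes, where 4 equal libraries would take 25% each. Why this library changed less was not tested.

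**Figure D2:**
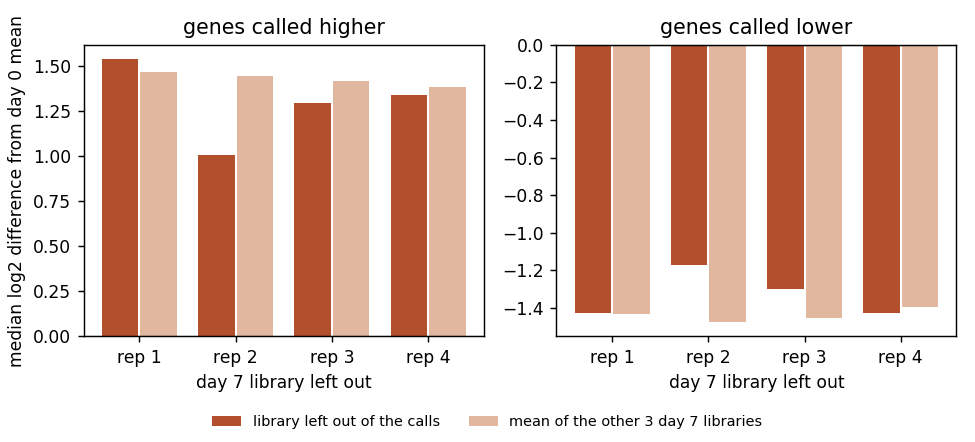
Median log2 difference from the day 0 mean (vertical axis) of the genes called higher (left) and lower (right) when the named day 7 library was left out of the calls, in that library (dark bars) and in the mean of the other 3 day 7 libraries (pale bars). Replicate 2 has the shortest dark bar in both panels, at 1.01 and -1.17.

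The make-up of the transcript pool turned over. Genes called higher took 51.6%, 45.8%, 46.7% and 51.3% of the counts in day 7 replicates 1 to 4, against 19.9%, 14.6%, 17.8% and 19.2% in day 0 replicates 1 to 4. Genes called lower took 10.2%, 12.6%, 10.8% and 10.5% of the counts on day 7, against 32.0%, 45.6%, 38.6% and 34.2% on day 0. No day 7 library overlapped a day 0 library in either share, which the choice of the genes by these calls fixes. The means were 48.8% ± 3.05 on day 7 and 17.9% ± 2.35 on day 0 for the genes called higher (SD, n = 4 each), and 11% ± 1.09 on day 7 and 37.6% ± 6.0 on day 0 for the genes called lower.

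The most abundant genes were exchanged as well. By counts, with no correction for gene length, only 30 of the 100 most abundant genes of day 7 were also among the 100 most abundant of day 0. Of the 100 on day 7, 71 were called higher and none lower, beside 27.5% and 23.6% of all tested genes; their median rank on day 0 was 238, and 30 of them ranked beyond 1000 there. Of the 100 most abundant on day 0, 61 were called lower and 5 higher; their median rank on day 7 was 369.5, and 40 ranked beyond 1000. These genes were picked for their level on 1 of the days, so their calls describe the exchange and do not test it.

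For the breadth of the pool no difference passed the test. The 100 most abundant genes of each library took 14.7%, 14.8%, 17.4% and 14.7% of counts in day 7 replicates 1 to 4, against 12.5%, 16.8%, 13.1% and 11.5% in day 0 replicates 1 to 4. The groups overlapped, and the means of 15.4% ± 1.31 on day 7 and 13.5% ± 2.29 on day 0 (SD, n = 4 each) differed with a two-sided exact permutation p of 0.2 (0.4 adjusted over both library values tested). Genes at 1 CPM or more numbered 23744 to 24371 on day 7 and 23950 to 24056 on day 0 (exact permutation p = 0.4; 0.4 adjusted). The smallest p that 4 against 4 libraries can give is 0.0286.

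**Figure D3:**
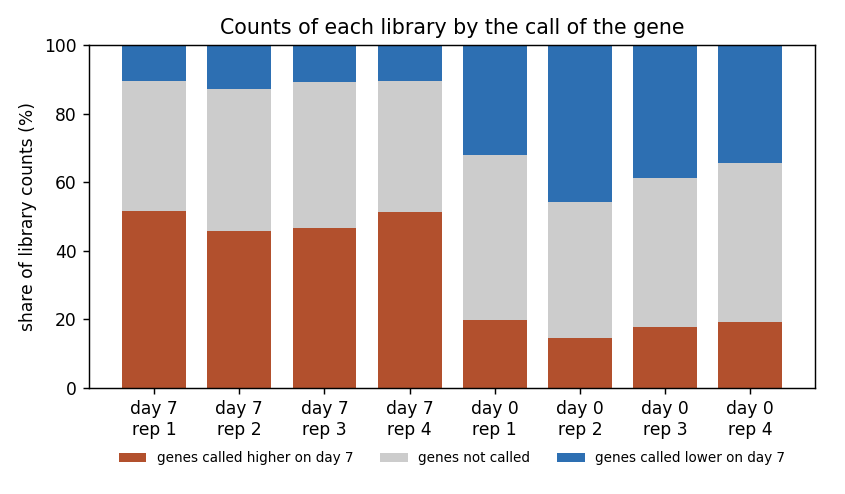
Share of each library's counts (vertical axis, percent) in genes called higher on day 7, not called and called lower, for the 4 day 7 libraries (left) and the 4 day 0 libraries (right). Genes called higher hold between 45.8% and 51.6% of the counts on day 7 and between 14.6% and 19.9% on day 0; the at most 0.166% in untested genes is not drawn.

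The genes with the largest gain and the largest loss of mean CPM held the top rank by counts on day 7 and on day 0. They were picked among called genes whose groups did not overlap, so their separation follows from the choice. Potri.001G102400 was the most abundant gene by counts on day 7 and ranked 385 on day 0. It had 9961, 2464, 5740 and 12745 CPM in day 7 replicates 1 to 4, against 164, 226, 263 and 459 CPM in day 0 replicates 1 to 4. Replicate 2 held the lowest day 7 level. Day 7 exceeded day 0 by 4.80 on the log2 scale, or 27.8-fold, with an SE of 0.59 and an adjusted p of 6.61e-05 by edgeR. Its mean on day 5 was 2945 CPM ± 1094 (SD, n = 4), and day 7 exceeded it by 1.39 on the log2 scale, with an SE of 0.51 (adjusted p = 0.0464, edgeR).

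Potri.010G012100, the gene with the next largest gain, was the most even of the named genes on day 7. It had 4816, 4797, 4993 and 5181 CPM in day 7 replicates 1 to 4, against 318, 628, 1112 and 1346 CPM in day 0 replicates 1 to 4. It was higher on day 7 by 2.54 on the log2 scale, or 5.81-fold, with an SE of 0.43 (adjusted p = 0.00054, edgeR). Here replicate 2 lay close to the other day 7 libraries, and the day 0 libraries were the more widely spread. Day 7 also exceeded day 5, where the mean was 1707 CPM ± 588 (SD, n = 4), by 1.53 on the log2 scale, with an SE of 0.42 (adjusted p = 0.0124, edgeR).

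Potri.002G111900 was the most abundant gene by counts on day 0 and ranked 2022 on day 7. It had 70.8, 208, 69.2 and 63.8 CPM in day 7 replicates 1 to 4, against 2412, 7955, 4917 and 3589 CPM in day 0 replicates 1 to 4. Replicate 2 was the highest library of both days. The gene was 45.9-fold lower on day 7, with a log2 fold change of -5.52, an SE of 0.63 and an adjusted p of 4.05e-05 by edgeR. Against day 5, with 700.3 CPM ± 364 (SD, n = 4), the log2 fold change was -2.77 with an SE of 0.55 (adjusted p = 0.00248, edgeR).

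Potri.002G189000 ranked 950 on day 7 and was the second most abundant gene on day 0. It had 154, 253, 102 and 171 CPM in day 7 replicates 1 to 4, against 2727, 6653, 3779 and 2083 CPM in day 0 replicates 1 to 4. Again replicate 2 was highest on both days. It was 22.4-fold lower on day 7, with a log2 fold change of -4.49, an SE of 0.46 and an adjusted p of 2.07e-05 by edgeR. A gene 2 places away in the numbering had between 0.967 and 0.979 times its CPM in each of the 12 libraries. The counts of the pair were not identical, and whether the genes share reads was not tested.

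**Figure D4:**
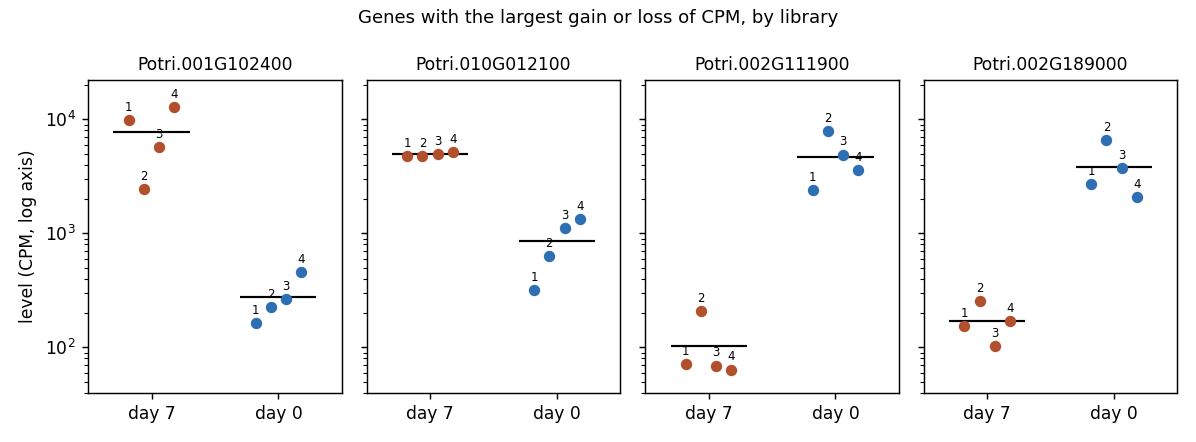
Level in each library (vertical axis, CPM, log axis) of the 2 genes with the largest gain and the 2 with the largest loss of mean CPM, for day 7 (left in each panel) and day 0 (right). Points carry the replicate number and bars are means of 4 libraries; the groups do not overlap because the genes were chosen so, and replicate 2 is the lowest day 7 library of Potri.001G102400 and the highest of both genes with a loss.

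The listed genes of wood synthesis, 20 for monolignols and 5 for cellulose, fell nearly throughout. No genes for xylan were on the list. Of the 25 genes of the list, 24 were lower on day 7 and none higher, against 23.6% of all tested genes called lower. The same 24 lay below all 4 day 0 libraries in all 4 day 7 libraries, against 21.6% of all tested genes. The log2 fold changes of these 24 ran from -5.76 to -1.74. Over all 25 genes the median was -3.53, beside a median of 0.03 over all tested genes. The list took 0.281% ± 0.139 of scaled counts on day 7 and 2.46% ± 1.19 on day 0 (SD, n = 4 each). By library it took 2029, 4861, 1898 and 2439 CPM in day 7 replicates 1 to 4, against 17091, 41427, 24603 and 15459 CPM in day 0 replicates 1 to 4. Replicate 2 was highest on both days. The shares over all tested genes are not matched for level. On day 0, 24 of the 25 listed genes were among the 1000 most abundant. Of the 100 most abundant genes on day 0, 61 were called lower. This list was chosen with earlier results of these libraries known, so its direction is a description and not independent evidence.

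At the entry of the pathway, all 5 genes for phenylalanine ammonia-lyase, which turns phenylalanine into cinnamate, fell, with a median log2 fold change of -4.0. Their summed level was 440.4, 792, 311 and 684 CPM in day 7 replicates 1 to 4, against 3546, 6545, 3876 and 2114 CPM in day 0 replicates 1 to 4. The members did not fall alike, since their log2 fold changes ran from -4.61 to -2.07. Both genes for cinnamate hydroxylase, the P450 enzyme of the next step, fell, with log2 fold changes of -5.47 and -3.81. They summed to 70.8, 183, 77.5 and 115 CPM in day 7 replicates 1 to 4, against 1521, 4139.8, 2483 and 1222 CPM in day 0 replicates 1 to 4, and the ratio of the means was 21.0. No difference between families was tested.

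The middle steps attach coenzyme A and shikimate and add a hydroxyl group to the ring. Both coumarate-CoA ligase genes, which activate the acid, fell, with a summed level of 91.0 CPM ± 39.6 on day 7 and 908 CPM ± 419 on day 0 (SD, n = 4 each). Both hydroxycinnamoyltransferase genes fell as well, to a sum of 240.04 CPM ± 146 on day 7, against 2073 CPM ± 428 on day 0. The single gene listed for the coumaroyl ester hydroxylase fell as well, with a log2 fold change of -2.64, an SE of 0.36 and an adjusted p of 0.000129 by edgeR. None of these families had a day 7 library in the range of the day 0 libraries.

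The methyltransferases fell unevenly. The caffeic acid methyltransferase gene, which methylates on the way to syringyl lignin, was at 118 CPM ± 37.7 on day 7 and 2626 CPM ± 1769 on day 0 (SD, n = 4 each). The ratio of these means was 22.2, and 15.3 without day 0 replicate 2. Of the 3 caffeoyl-CoA methyltransferase genes, 2 fell, with log2 fold changes of -3.53 and -3.59. The third was the only gene of the list that did not pass the test, at a log2 fold change of -0.91 with an SE of 0.36 (adjusted p = 0.0548, edgeR). Both coniferaldehyde hydroxylase genes, which act in the same branch as the caffeic acid methyltransferase, fell, to a sum of 193 CPM ± 87.5 on day 7, against 1260.4 CPM ± 762 on day 0.

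Of the families, those of the last reductive steps had the smallest median changes. The cinnamoyl-CoA reductase gene was at 124 CPM ± 27.6 on day 7 and 450.5 CPM ± 174 on day 0 (SD, n = 4 each), with a log2 fold change of -1.86, an SE of 0.31 and an adjusted p of 0.000511 by edgeR. The cinnamyl alcohol dehydrogenase gene, whose enzyme makes the finished alcohols, had 354, 1273, 463 and 291 CPM in day 7 replicates 1 to 4, against 1835, 2596, 1844 and 1695 CPM in day 0 replicates 1 to 4. Its log2 fold change was -1.74, with an SE of 0.49 and an adjusted p of 0.0111 by edgeR. Replicate 2 held far more of it than the other day 7 libraries; without it the log2 fold change was -2.40.

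All 5 genes for cellulose synthases of the secondary wall fell, with a median log2 fold change of -4.48. Together they reached 103, 820.4, 120.3 and 107 CPM in day 7 replicates 1 to 4, against 2762, 10182, 5318 and 3797 CPM in day 0 replicates 1 to 4. The fall was present in each library, but replicate 2 stood far above the other day 7 libraries. Without it the day 7 mean was 110.1 CPM in place of 288 CPM, the ratio of the means was 50.1 in place of 19.2, and the median log2 fold change was -5.28. Without day 0 replicate 2 that median was -3.84.

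**Figure D5:**
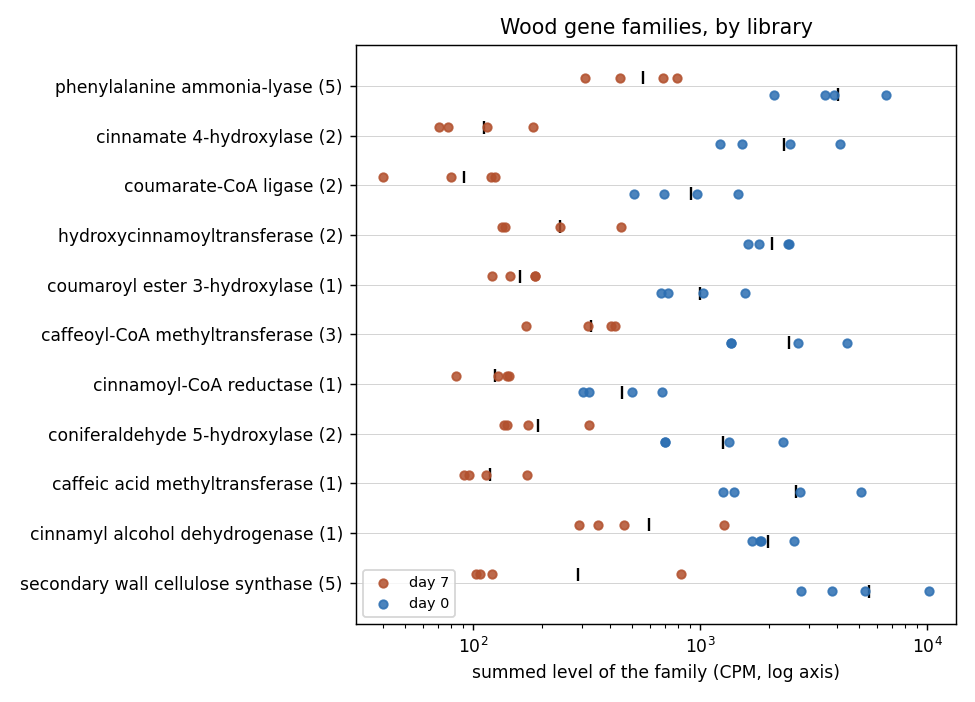
Summed level of each wood gene family (horizontal axis, CPM, log axis) in the 4 day 7 libraries (upper row of each family) and the 4 day 0 libraries (lower row), with bars at the means and the number of genes in brackets. Day 7 lies left of day 0 without overlap in every family, and day 7 replicate 2 stands apart among the cellulose synthases, at 820.4 CPM.

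Most of the wood list was also lower in severe than in mild drought. Over all tested genes, 5995 (22.3%) were higher and 5349 (19.9%) lower on day 7 than on day 5. In the list, 20 of 25 genes were lower on day 7 than on day 5 and none higher, with a median log2 fold change of -1.64. Every cinnamate hydroxylase, phenylalanine ammonia-lyase and coumarate-CoA ligase gene was among the 20. The cinnamyl alcohol dehydrogenase gene was not, with 595 CPM ± 458 on day 7 and 849 CPM ± 393 on day 5 (SD, n = 4 each; edgeR adjusted p = 0.405). The third caffeoyl-CoA methyltransferase gene did not pass the test against day 5 either (edgeR adjusted p = 0.551). Nor did 1 gene each for cellulose synthase (0.204), hydroxycinnamoyltransferase (0.0588) and coniferaldehyde hydroxylase (0.0656). The comparison with day 5 shares its day 7 libraries with the comparison with day 0.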

How the data were processed

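The authors deposited 1 table of raw whole-number read counts for 41335 genes in 12 libraries. TopHat was used on the reads, per the submitters' processing notes. Which build, counting program, strand setting and TopHat version were used is not given in the sources used here. Reads of overlapping, antisense or near-identical genes may therefore be shared. Of the tested genes, 103 had the counts of another in all libraries, none of them on the wood list.

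Genes were kept by filterByExpr (minimum count 10; 26943 genes), scaled by TMM and tested with edgeR 4.0.16 in R 4.3.3 (quasi-likelihood, 1 mean per day, all 12 libraries), with Benjamini-Hochberg adjustment over all genes. An SE is the size of the log2 fold change divided by the root of the F statistic, and a prior count of 2 entered log2 CPM. Library values were compared by exact permutation (scipy 1.17.1). The tests were tried on simulated data with 200 genes changed, far fewer than were called here. That trial cannot speak to scaling when so many genes change, and no result rests on it. Alternatives used DESeq2 1.42.0, limma-voom (limma 3.58.1), other scalings and filters, the 8 libraries alone, a minimum fold of 2, a replicate block and each library left out.

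Named genes are the 2 with the largest gain and the 2 with the largest loss in mean CPM among called genes without overlap between the groups and with a mean of at least 5 CPM in 1 of them. The rule would also name 2 wood genes, which were not printed because the files give their identifiers no role. The genes, lists and comparison were chosen with earlier results of these data known. The wood list rests on published designations recalled for this work, not on the files. Every pair of libraries of a day differed by more than sampling noise, with a chi-square of 12.3 to 94.1 for each degree of freedom.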

Additional observations from a re-analysis of the deposited data

Results flagged for a closer look

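In 4 of 42 sets of 4 libraries of a day, 1 library stood apart by Dixon's criterion. About 1 in 20 independent sets would do so by chance, and the sets examined share libraries and genes. In day 7 replicate 2 the cellulose synthase genes summed to 820.4 CPM, while the remaining day 7 replicates held 103 to 120.3 CPM. In the same library Potri.002G111900 had 208 CPM, while the remaining replicates held 63.8 to 70.8 CPM. In day 7 replicate 3 the 100 most abundant genes took 17.4% of counts, against 14.7% to 14.8%. In day 0 replicate 2 the cinnamyl alcohol dehydrogenase gene had 2596 CPM, while the remaining day 0 replicates held 1695 to 1844 CPM. The cause of these gaps was not tested.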

How the results depend on the processing

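Of 391 values recomputed under the alternatives, 372 were labelled unchanged. Tested values had to keep their direction and their side of the threshold. Medians and shares of counts had to stay within the SD between day 7 replicates. Gene counts had only to stay within a fixed ratio of the main count. The upper-quartile split of 6686 higher and 7041 lower therefore passed, although the larger direction changed. Tested against a minimum fold of 2, 3197 genes were higher and 2426 lower. The mean number of genes detected, day 7 minus day 0, was 142.5 at 1 CPM and turned to -158.25 at 5 CPM (exact permutation p = 0.143), and neither difference passed the test. Leaving out each library in turn gave 6580.0 to 7705 higher and 5617 to 6101 lower genes against day 0, 4964 to 6196 higher and 4134 to 5486 lower against day 5, and 24 to 25 wood genes lower with a list median from -3.74 to -3.10. For Potri.001G102400 the highest edgeR, limma-voom or DESeq2 adjusted p over 17 alternatives was 0.000503, for Potri.010G012100 0.0044, for Potri.002G111900 0.000269 and for Potri.002G189000 0.000236. The share of day 7 counts in genes called lower lay between 9.23% and 13%, and in those called higher between 45.3% and 50.6%. These shares follow from which genes are called. The first, 11% in the main fit, moved by more than the SD between day 7 replicates in most alternatives. Each day 7 library left out was among them. The second did so with upper-quartile scaling and without day 0 replicate 3. Without day 0 replicate 2, median log2 fold changes moved by more than the SD between day 7 replicates for caffeic acid methyltransferase (-3.92), coniferaldehyde hydroxylase (-2.05) and coumaroyl ester hydroxylase (-2.32). Replicate numbers showed no steady pairing: deviations of same-numbered day 7 and day 0 libraries correlated between -0.171 and 0.125. Only for replicate 2 was the same number the best match, at 0.125. These few correlations cannot decide whether libraries of 1 number shared an origin. With a replicate block, 6924 genes were higher and 6171 lower. Scalings moved the median log2 fold change of all genes from 0.03 to -0.04. Total counts of 9.35 to 17.7 M limit what can be told of genes below 1 CPM.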
